A study of Schizosaccharomyces pombe with 16 samples.

Results

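The core histone genes of fission yeast and the gene of its H2A variant, H2A.Z, were followed across strain, nitrogen and temperature. Members were taken by gene symbol from the platform's probe annotation. All 10 genes of the list were found, on 13 of the 4999 probe sets, 2917 of which carry a single gene symbol (2899 genes): hta1 and hta2 for H2A, htb1 for H2B, hht1, hht2 and hht3 for H3, hhf1, hhf2 and hhf3 for H4, and pht1 for H2A.Z. Of the 13 probe sets 12 belong to the canonical genes, and hht1, hhf1 and hhf3 have a pair each, of which the second carries the suffix _x_at, the manufacturer's mark for probes that can bind related transcripts. The 3 H3 genes, and likewise the 3 H4 genes, encode nearly the same protein, so signal shared between copies cannot be told apart from the ratios alone.

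Polyadenylated RNA of Schizosaccharomyces pombe was hybridised to 16 Affymetrix arrays. L972 served as wild type. The other strain, fcp1-452, has a heat-sensitive version of fcp1, which encodes a phosphatase of the RNA polymerase II tail. The medium was EMM2, a defined minimal broth (+N), or EMM2-N, which lacks its nitrogen source (-N). With both temperatures, 26 and 37 °C, this makes 8 groups. Wild type with nitrogen is described as growing in log phase at both temperatures, and the mutant at 26 °C only, while at 37 °C it was incubated. The time at 37 °C or without nitrogen, and whether the mutant was 1 or several clones, are not given in the sources used here.

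DNA in the nucleus is wrapped around octamers of H2A, H2B, H3 and H4. Their genes are switched on together as DNA is copied in S phase, in fission yeast with the help of the GATA-type factor Ams2, and unlike most animal canonical histone messages those of yeasts carry poly(A) tails, so that a poly(A) preparation retains them. Most H3 and H4 genes of this yeast lie side by side in H3-H4 pairs; hht2 and hhf2 have been described as a pair expressed through the cell cycle, and the other pairs as peaking in S phase. H2A.Z replaces H2A in some nucleosomes, is placed there by the Swr1 complex, and is made from its own gene, pht1. In the RefSeq gene table of assembly ASM294v3, hht1 is next to hhf1, hht2 to hhf2, hht3 to hhf3 and hta1 to htb1, while hta2 and pht1 have no histone neighbour.

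Values are log2 ratios. A value of 0 is the probe set's own median over the 8 arrays of set 2, all with nitrogen, and a step of 1 is a 2-fold change, so genes can be compared by their changes and not by their levels. The array of set 1 and replicate 1 of set 2 were nearly identical in each of the 4 groups with nitrogen. With each probe set centred over these groups, r across probe sets was 0.975 to 0.990, against 0.652 to 0.765 with replicate 2. The largest difference of a member between the 2 arrays was 0.33 in fcp1-452 at 37 °C and 0.30 at 26 °C. In wild type it was 0.098 and 0.13. The 2 arrays were averaged as 1 sample. This gave 12 samples: every +N group has 2 and every -N group has 1. The labels do not tie the replicates to separate cultures, so p-values measure only how far these samples lie apart, and that may be technical variation. Changes are given ± SE with adjusted p-values from limma (n = 2 per group with nitrogen, n = 1 without) with Benjamini-Hochberg adjustment over all 4999 probe sets, and a change is called at an adjusted p under 0.05. Those of the -N samples borrow their spread from the groups with nitrogen, and the block moves their comparison groups towards replicate 1 (fully so in the mean over the 4 conditions). The fcp1 transcript itself was at -0.24 ± 0.12 in the mutant at 37 against 26 °C (adjusted p = 0.157), which does not check a temperature-sensitive allele.

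**Figure D1:**
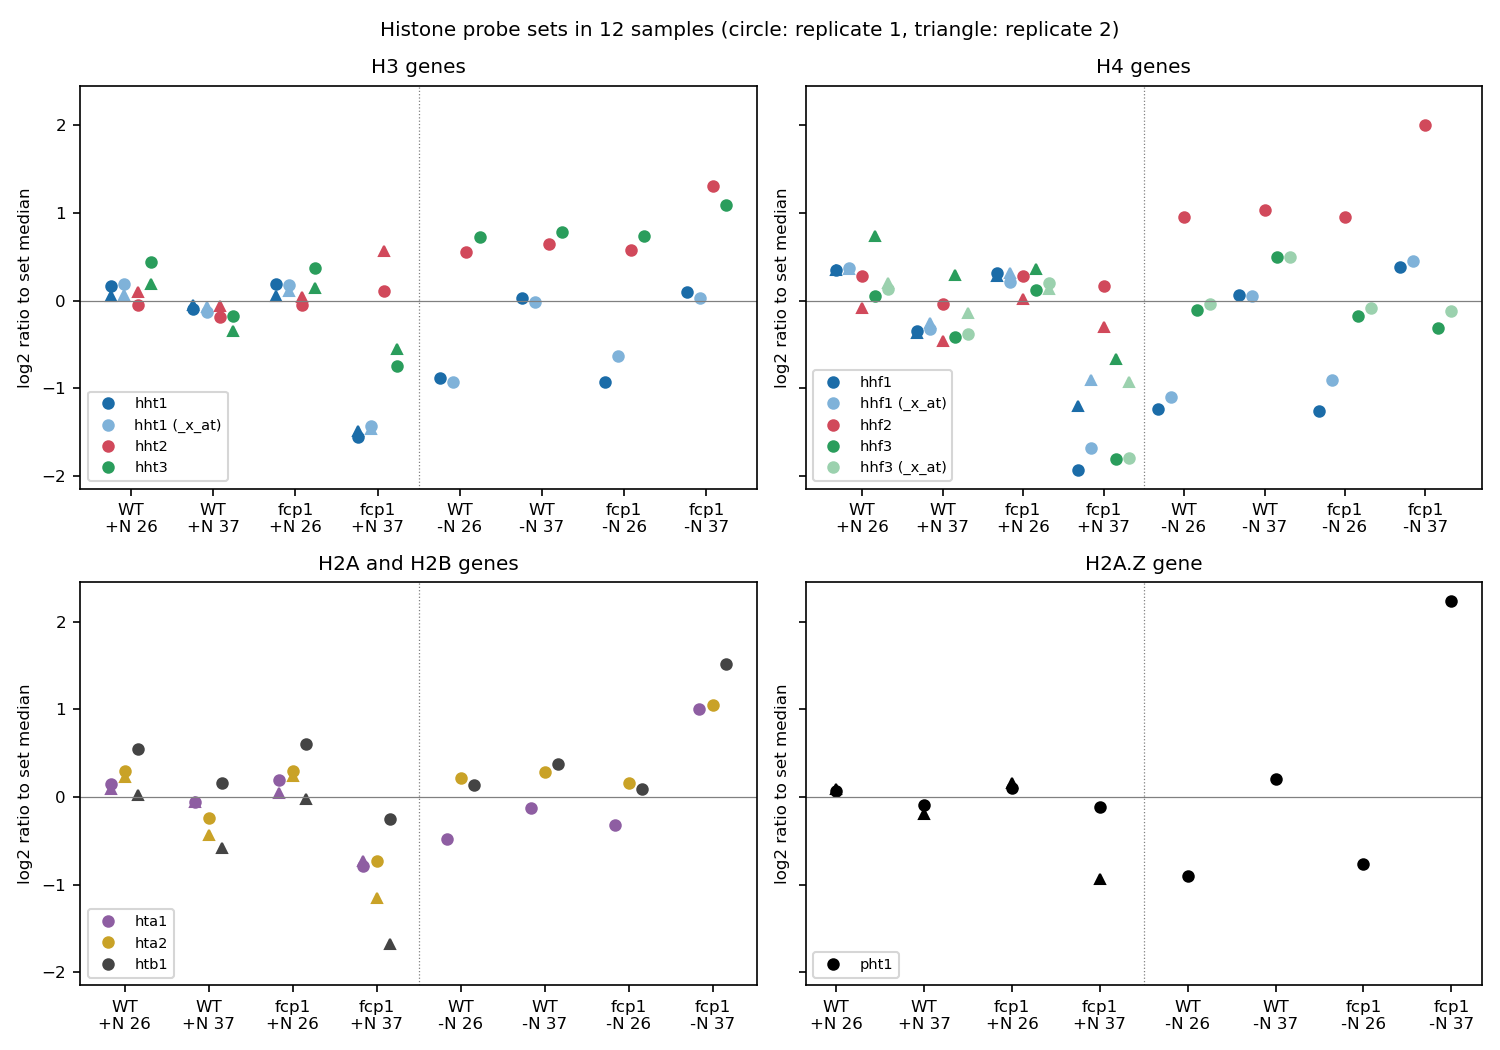
Each panel plots the log2 ratio to the set median (vertical axis) of one histone class in the 8 groups (horizontal axis; WT is wild type, fcp1 is fcp1-452, temperatures in °C), with circles for replicate 1 and triangles for replicate 2, and a dotted line between +N and -N. In fcp1-452 with nitrogen at 37 °C hht1 lies at -1.55 and -1.49 while hht2 lies at 0.11 and 0.57, and in starved fcp1-452 at 37 °C pht1 stands at 2.24.

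Histone messages were first compared between 37 and 26 °C in each strain with nitrogen. In wild type the 13 probe sets were lower at 37 °C in both replicates, by small amounts, and none was called. In fcp1-452 the fall was larger: 10 of 13 probe sets, of 7 of the 10 genes, were called lower and none higher. Over all probe sets 22.1% were called lower in the mutant and 0.22% in wild type, where 0.54% were called in either direction. The median of the 12 canonical probe sets was -1.37 in fcp1-452 and -0.44 in wild type, beside -0.04 and 0.01 for all 4999 probe sets. The genes hht1, hhf1 and hhf3 enter it by both of their probe sets, as in every canonical median and mean below.

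The H3 gene hht1 stood at 0.17 and 0.05 in wild type at 26 °C and at -0.10 and -0.05 at 37 °C in replicates 1 and 2. In fcp1-452 it was at 0.19 and 0.05 at 26 °C and at -1.55 and -1.49 at 37 °C. The mutant samples at 37 °C were thus far below the 6 others with nitrogen, and the replicates lay close together. The change in fcp1-452 was -1.64 ± 0.11 (adjusted p = 0.00116), a 3.11-fold fall, and the second hht1 probe set gave -1.59 ± 0.10. Its neighbour, the H4 gene hhf1, went from 0.32 and 0.28 at 26 °C to -1.93 and -1.20 at 37 °C in the mutant, a change of -1.87 ± 0.21 (adjusted p = 0.00290). That was the largest fall among the members, and its second probe set, at -1.55 ± 0.21, fell as well. In wild type hhf1 went from 0.35 and 0.34 to -0.35 and -0.37, which is -0.71 ± 0.21 (adjusted p = 0.153). The samples of the 2 temperatures did not overlap in either strain for hhf1.

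The pair hht3 and hhf3 fell in the mutant too. The H3 gene hht3 was at 0.38 and 0.15 at 26 °C and at -0.75 and -0.55 at 37 °C (-0.91 ± 0.14, adjusted p = 0.00659). The H4 gene hhf3 was at 0.12 and 0.36 at 26 °C and at -1.81 and -0.67 at 37 °C (-1.48 ± 0.21, adjusted p = 0.00469). Both replicates of each gene went down, although for hhf3 the replicates at 37 °C were more than 1 log2 unit apart. Of the H2A and H2B genes, hta1 was at 0.20 and 0.05 at 26 °C and at -0.78 and -0.72 at 37 °C (-0.88 ± 0.10, adjusted p = 0.00310). The other H2A gene, hta2, fell by 1.21 ± 0.13 on the log2 scale (adjusted p = 0.00228), and htb1, the H2B gene, fell by 1.25 ± 0.23 (adjusted p = 0.00971). The value of htb1 differed between replicates, from 0.60 to -0.25 in replicate 1 and from -0.03 to -1.68 in replicate 2.

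A different course was seen for the neighbours hht2 and hhf2. The mutant values of hht2 were -0.05 and 0.04 at 26 °C and 0.11 and 0.57 at 37 °C. Those of hhf2 were 0.28 and 0.02 at 26 °C and 0.17 and -0.30 at 37 °C. Neither passed the test, with hht2 at 0.35 ± 0.13 (adjusted p = 0.0747) and hhf2 at -0.22 ± 0.10 (adjusted p = 0.149). Each probe set's value was then taken relative to hht2 in the same sample, a comparison added after the values were seen. Because hht2 had the highest change of all members, the sign of these differences was fixed by that choice. All 12 other histone probe sets were called as changing more negatively than hht2 in the mutant. Over 4998 probe sets 35% did so and 5.4% changed more positively, and for the reason given the count of 12 is no independent test. The difference from hht2 was -1.99 ± 0.15 for hht1 (adjusted p = 0.000556), -2.21 ± 0.17 for hhf1 and -0.56 ± 0.18 for hhf2, the neighbour of hht2 (adjusted p = 0.0425).

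In wild type, 10 of 13 probe sets had both 37 °C samples below both 26 °C samples, where 15.6% of all probe sets did. The corresponding count in fcp1-452 was 11, where 27.7% of all did. Limma called 0 of the 13 in wild type, with 5 at an unadjusted p under 0.05 (1029 of 4999 over all probe sets). The nearest to the threshold was hta2 (-0.60 ± 0.13, adjusted p = 0.0923), followed by hht3 (-0.58 ± 0.14, adjusted p = 0.114). For the alternatives that follow, the shares of all probe sets called are not given here. The count became 6 lower after quantile normalization and 3 lower in the fit of all 16 arrays, which counts the near-identical arrays as separate replicates. It was 5 without either replicate of fcp1-452 at 37 °C with nitrogen.

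**Figure D2:**
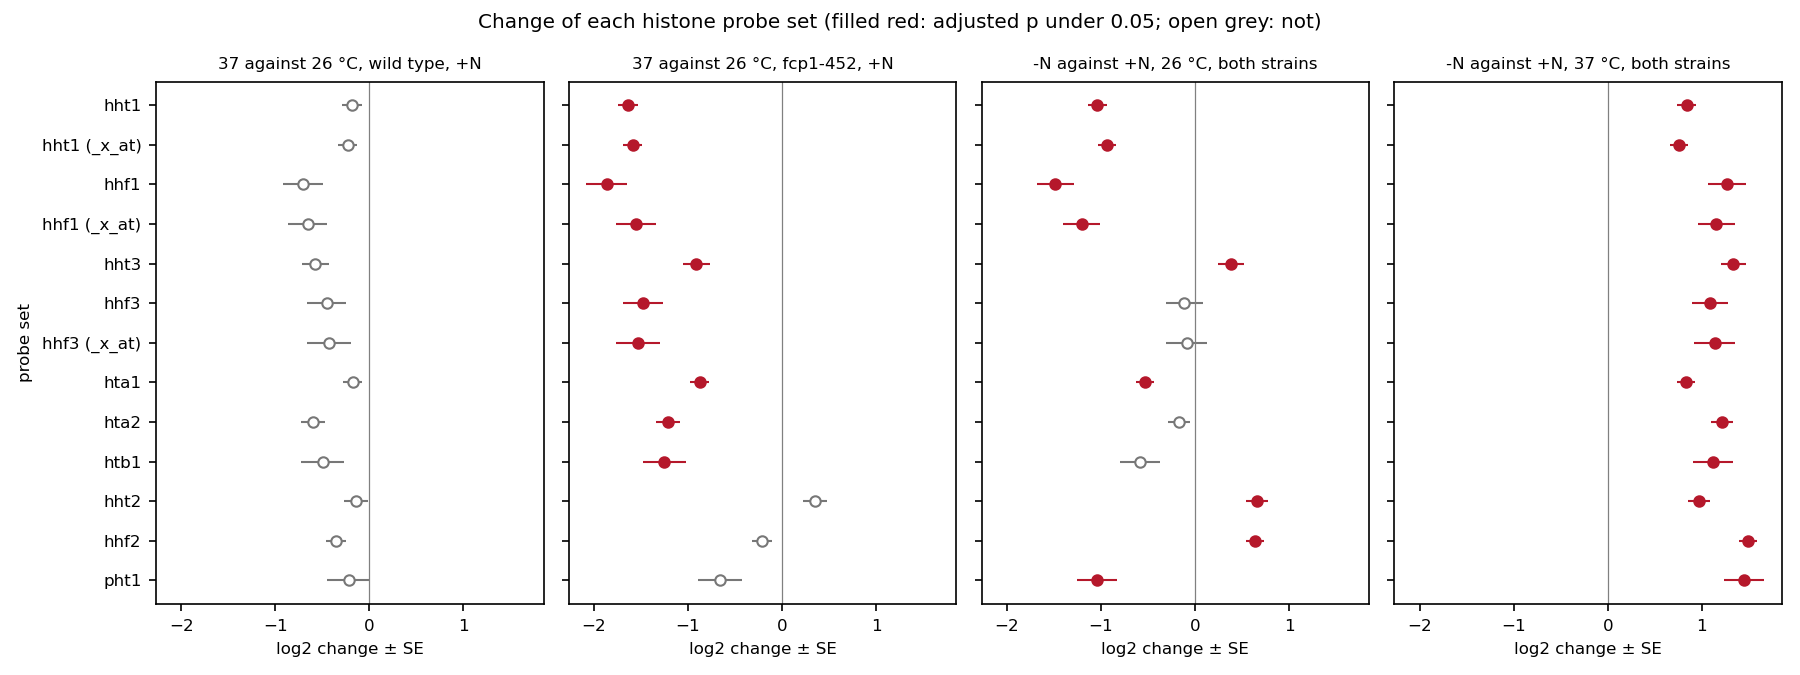
The horizontal axis is the log2 change ± SE of each histone probe set (vertical axis) in 4 comparisons, with filled red points where limma's adjusted p is under 0.05 and open grey points elsewhere. No point is red for wild type at 37 °C, 10 of 13 are red and negative in fcp1-452, starvation at 26 °C has 3 higher and 6 lower, and starvation at 37 °C has all 13 higher.

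The strain comparison asked whether the mutant differed from wild type at each temperature. At 26 °C with nitrogen limma called none of the histone probe sets and 0% of all, and an unadjusted p under 0.05 was found for 0 of 13, against 19 of 4999. The canonical changes there ran from -0.16 to 0.05, with pht1 at 0.06 ± 0.23. At 37 °C 8 were lower in fcp1-452 and 1 was higher, beside 19.2% lower and 14.7% higher over all probe sets. The lower ones were both hht1 probe sets (-1.44 ± 0.11, adjusted p = 0.00222, and -1.35 ± 0.10), both of hhf1 (-1.21 ± 0.21 and -0.997 ± 0.21), both of hhf3 (-1.18 ± 0.21 and -1.10 ± 0.23), hta1 (-0.70 ± 0.10) and hta2 (-0.61 ± 0.13). The gene that was higher was hht2 (0.46 ± 0.13, adjusted p = 0.0385), a call lost in 7 of the 8 omissions of a single +N sample, the exception being replicate 1 of fcp1-452 at 37 °C, and with quantile-normalized values. Without the replicate block 4 were called, all lower. Without either wild-type sample at 37 °C 2 were called, and 1 remained without both wild-type samples of replicate 2.

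Whether the change at 37 °C differed between the strains was tested as an interaction with temperature. It was called for 3 of 13 probe sets, all more negative in fcp1-452, where 7.68% of all probe sets were and 4.12% were more positive. They were hht1 by both of its probe sets (-1.45 ± 0.15, adjusted p = 0.0151, and -1.36 ± 0.14) and hta1 (-0.70 ± 0.15, adjusted p = 0.0402). For hhf1 the interaction was -1.16 ± 0.30 (adjusted p = 0.0615), and for hht2 it was 0.49 ± 0.18 (adjusted p = 0.126). The count was 0 with quantile-normalized values, without the block and without any 1 of the samples with nitrogen other than those of fcp1-452 at 37 °C. Without replicate 1 of that group it was 9 more negative and 1 more positive, and without replicate 2 it was 8 more negative.

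The variant gene pht1 was compared with the canonical genes in the same samples. With nitrogen it was at 0.06 and 0.09 in wild type at 26 °C, -0.09 and -0.19 in wild type at 37 °C, and 0.11 and 0.16 in fcp1-452 at 26 °C. In fcp1-452 at 37 °C the replicates parted, at -0.12 and -0.93. The fall of 0.66 ± 0.23 on the log2 scale in the mutant had an adjusted p of 0.0674 and was not called. The mean of the 12 canonical probe sets in the same mutant samples was -1.04 and -0.87, so the canonical mean lay 0.92 below pht1 in replicate 1 and 0.06 above it in replicate 2. Relative to pht1, 3 of the 12 canonical probe sets fell further in the mutant, where 2.84% of 4998 probe sets did. They were both hht1 probe sets (-0.98 ± 0.33, adjusted p = 0.0400, and -0.93 ± 0.32) and the first of hhf1 (-1.21 ± 0.39, adjusted p = 0.0369). The gene hht2 changed more positively than pht1 (1.01 ± 0.34, adjusted p = 0.0425), as did 29.9% of all probe sets. These 4 calls became 0 without the replicate block, without either sample of fcp1-452 at 26 °C and without both wild-type samples of replicate 2. There were 2 after quantile normalization or without either wild-type sample at 26 °C, and 1 without either at 37 °C. There were 7 in the fit of all 16 arrays, with its duplicates counted as replicates, and 8 and 11 without replicate 1 and replicate 2 of fcp1-452 at 37 °C.

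Starvation was the next comparison, asked as the mean change of the 4 conditions. There 6 of 13 probe sets rose and none fell, where 33.9% of all probe sets rose and 38.2% fell. The largest rises were hhf2 (1.06 ± 0.07, adjusted p = 9.10e-05), hht3 (0.86 ± 0.10) and hht2 (0.81 ± 0.09), followed by the hhf3 probe sets (0.49 ± 0.15 and 0.52 ± 0.16) and hta2 (0.52 ± 0.09). The temperatures were tested apart after the values were seen. Then hhf2, hht3 and hht2 rose at both, while hht1, hhf1, hta1 and pht1 fell at 26 °C and rose at 37 °C. Without the starved fcp1-452 sample at 37 °C, a single array, 3 rose and 6 fell. Without the starved wild-type sample at 26 °C 10 rose, and without replicate 1 of fcp1-452 at 37 °C with nitrogen 8 rose and 2 fell. It was 1 with quantile normalization, and 4 when the block was left out.

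At 26 °C starvation set the pair hht1 and hhf1 apart from the pair hht2 and hhf2. The gene hht1 was at -0.89 in starved wild type and -0.92 in starved fcp1-452, and hhf1 at -1.23 and -1.26. Those values lay below all 4 samples with nitrogen at 26 °C, and the strains were close to each other. The gene hht2 was at 0.56 and 0.57, and hhf2 at 0.95 and 0.96, both above all samples with nitrogen at that temperature. Averaged over the strains, hht1 fell by 1.04 ± 0.10 (adjusted p = 0.000484) and hhf1 by 1.48 ± 0.20 (adjusted p = 0.00148) on the log2 scale, while hht2 rose by 0.66 ± 0.12 (adjusted p = 0.00423) and hhf2 by 0.64 ± 0.10 (adjusted p = 0.00228). The fall of hta1 was 0.53 ± 0.10 (adjusted p = 0.00455), and hht3 rose by 0.38 ± 0.13 (adjusted p = 0.0474). The neighbour of hht3, hhf3, did not rise with it (-0.11 ± 0.19 and -0.09 ± 0.22, not called).

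In all 3 probe sets rose and 6 fell at 26 °C, with 29.4% and 35.5% of all probe sets doing so. The H2A.Z gene was among those that fell, at -0.89 in wild type and -0.76 in fcp1-452 (-1.04 ± 0.22, adjusted p = 0.00734). Relative to hht2, 10 of the 12 other histone probe sets changed more negatively, beside 61.8% of all probe sets, and hhf2 differed from hht2 by -0.02 ± 0.16 (adjusted p = 0.907). Here too hht2 had the highest change of the members, so the sign of these differences was fixed by its choice. The interaction of strain and nitrogen at 26 °C was called for 0 of 13 by limma, with 0 at an unadjusted p under 0.05 and 54 of 4999 over all probe sets.

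**Figure D3:**
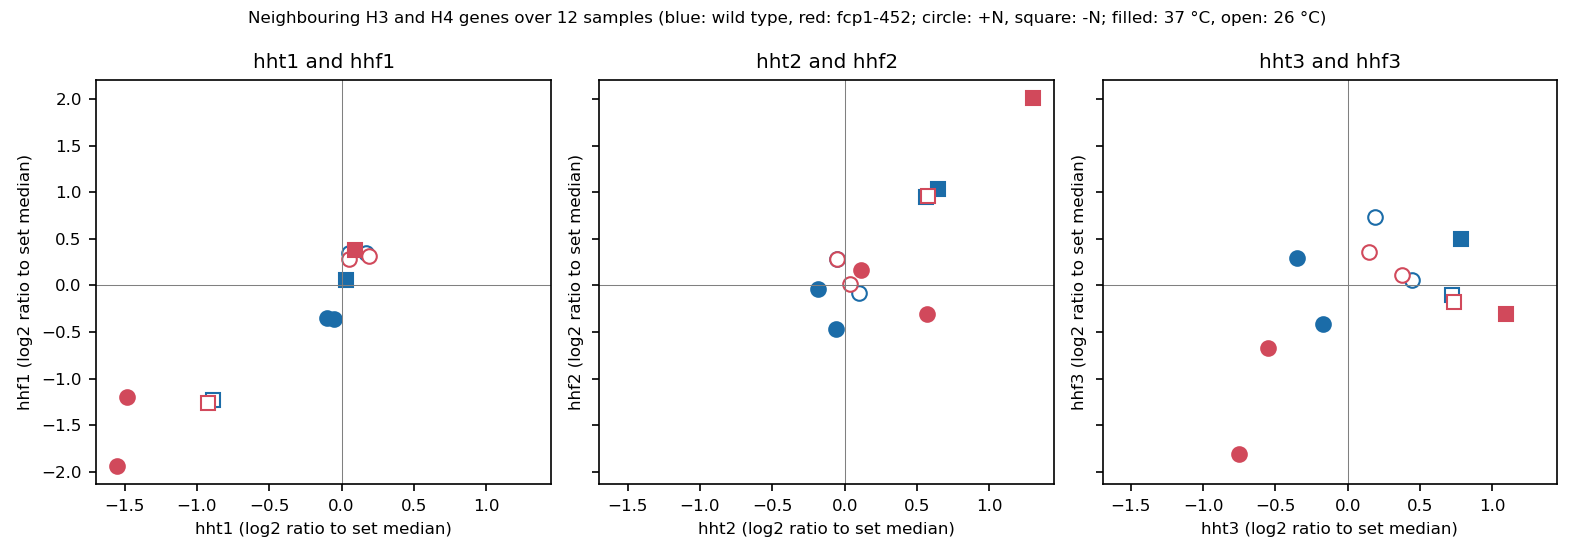
Each panel plots the H4 gene (vertical axis) against its neighbouring H3 gene (horizontal axis) as log2 ratios to the set median over 12 samples, in blue for wild type and red for fcp1-452, circles for +N and squares for -N, filled at 37 °C and open at 26 °C. For hht1 and hhf1 the starved 26 °C samples lie low on both axes, at -0.89 and -1.23 in wild type, and for hht2 and hhf2 they lie high on both, at 0.56 and 0.95.

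At 37 °C starved cells had more histone signal than cells with nitrogen, and more so in the mutant. All 13 probe sets rose in the mean of the strains, against 31.6% of all probe sets with 33.5% lower, from 0.76 ± 0.09 for the second hht1 probe set to 1.49 ± 0.10 for hhf2. Between the single arrays of set 1, the 12 canonical differences in wild type ran from -0.06 to 1.10 with a median of 0.45, and 1 reached 2-fold, where 13.9% of all probe sets did. In fcp1-452 they ran from 1.19 to 2.31 with a median of 1.76, and 12 reached 2-fold, where 20.6% of all did. The rise in the mutant starts from the low values of the same 37 °C samples with nitrogen that gave the fall described above, so the 2 comparisons share those samples. Set against starved wild type at 37 °C instead, the canonical median of starved fcp1-452 was 0.36 higher, with hta1 higher by 1.13, htb1 by 1.14, hhf2 by 0.97, hht1 by 0.06 and hhf3 at -0.81, and 2 of 12 reached 2-fold, where 17% of all probe sets did. Between the starved arrays at 37 and 26 °C, 2 of 12 reached 2-fold higher in wild type and 6 in fcp1-452, and none lower. Those in wild type were both probe sets of a single gene, hhf1 (1.29 and 1.15). Those in fcp1-452 were both of hhf1, the first of hht1, and hta1, htb1 and hhf2. The shares of all probe sets were 4.08% and 19.1% higher, and 1.68% and 17.1% lower. There pht1 was higher by 1.10 in wild type and 3.002 in fcp1-452. These single-array differences have no replicate check.

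The value of pht1 in starved fcp1-452 at 37 °C was the highest of any member in any sample. It stood at 2.24, against 0.20 in starved wild type at 37 °C and -0.76 in the starved mutant at 26 °C. The deposited ratio on that array was 4.77, against 0.543 to 1.16 on the other 7 arrays of set 1. The canonical mean in the same sample was 0.71, so pht1 exceeded it by 1.53. In the starved samples at 26 °C the order was the other way, with the canonical mean above pht1 by 0.71 in wild type and 0.62 in fcp1-452. Averaged over the 4 conditions pht1 changed by 0.20 ± 0.16 (adjusted p = 0.298), and only 2 canonical probe sets, those of hhf2 (0.86 ± 0.21, adjusted p = 0.00548) and hht3 (0.65 ± 0.25, adjusted p = 0.0455), changed more positively than pht1, where 17.3% of all did and 34.3% changed more negatively. Without the starved mutant sample at 37 °C the mean change of pht1 was -0.61 (adjusted p = 0.0252) and 6 canonical probe sets differed from it. That count was 0 without the starved wild-type sample at 26 °C or after quantile normalization. It was 1 without the replicate block, without the starved wild-type sample at 37 °C, the starved mutant sample at 26 °C either wild-type sample at 37 °C with nitrogen or both wild-type samples of replicate 2, and 9 without either replicate of fcp1-452 at 37 °C with nitrogen.

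**Figure D4:**
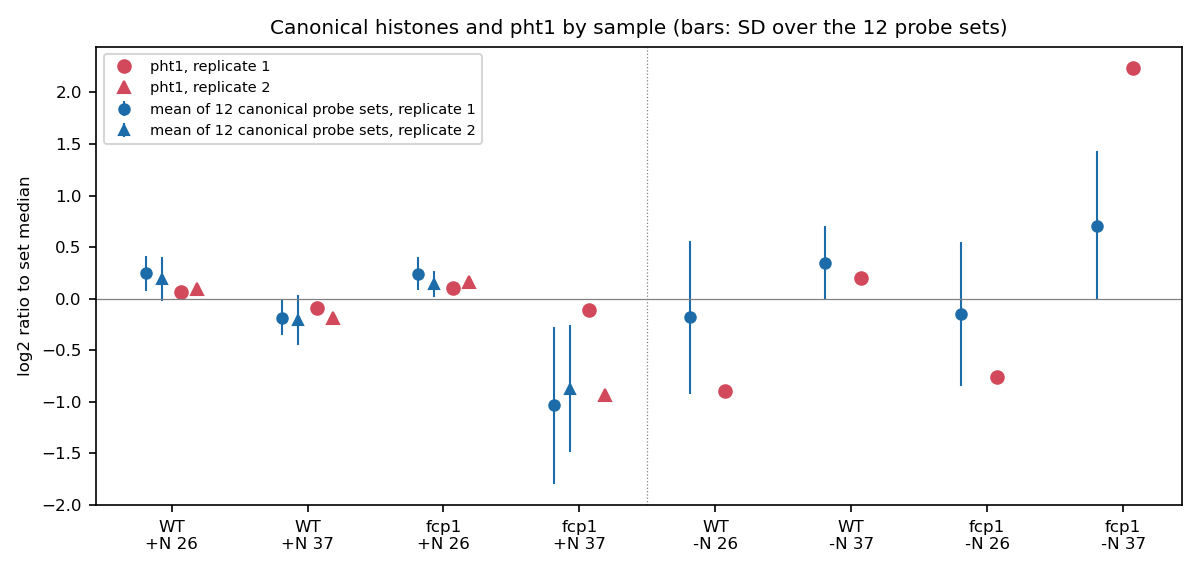
The vertical axis is the log2 ratio to the set median and the horizontal axis the 8 groups; blue points are the mean of the 12 canonical probe sets in 1 sample with bars for the SD over those probe sets, red points are pht1, circles replicate 1 and triangles replicate 2. The red point of starved fcp1-452 at 37 °C, at 2.24, lies 1.53 above the blue one, and in both starved 26 °C samples the red point lies below.

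The change of the starvation response with temperature was itself called for 12 of 13 histone probe sets, all more positive at 37 °C, where 19.3% of all probe sets were. It was largest for hhf1 (2.75 ± 0.26, adjusted p = 0.00280), pht1 (2.49 ± 0.28, adjusted p = 0.00352) and hht1 (1.88 ± 0.13, adjusted p = 0.00152). The exception was hht2, at 0.31 ± 0.15 (adjusted p = 0.168). Averaged over temperature, the interaction of strain and nitrogen was called for 5 of 13, all more positive in fcp1-452, where 8.84% of all probe sets were and 8.54% were more negative: pht1 (1.25 ± 0.28, adjusted p = 0.0380), hta1 (0.99 ± 0.13, adjusted p = 0.0145), both hht1 probe sets (0.84 ± 0.12 and 0.73 ± 0.13) and hta2 (0.66 ± 0.15). At 37 °C alone it was called for 9, where 20.9% of all were more positive, with hht2 at 0.20 ± 0.22 (adjusted p = 0.497) and hhf3 at 0.37 ± 0.36 (adjusted p = 0.435) among those not called. The count of 5 was 0 with quantile-normalized values, without the block or without any 1 sample with nitrogen other than those of fcp1-452 at 37 °C, and 9 without either of those.

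How far the members moved together was described over the 12 samples. Pairwise Pearson r among the 66 pairs of canonical probe sets ran from -0.21 to 0.99 with a median of 0.66. Neighbours correlated at r = 0.95 for hht1 and hhf1, 0.82 for hht2 and hhf2, 0.50 for hht3 and hhf3, and 0.78 for hta1 and htb1. Between copies of H3 r was -0.19 for hht1 and hht2, 0.47 for hht1 and hht3, and 0.58 for hht2 and hht3. Between copies of H4 it was 0.11 for hhf1 and hhf2, 0.75 for hhf1 and hhf3, and -0.008 for hhf2 and hhf3. The H2A copies hta1 and hta2 correlated at 0.82. Some genes that are not neighbours were as much alike as neighbours, such as hta2 and htb1 (0.92), hta2 and hht3 (0.90), and hht3 and hhf2 (0.83). Within the 8 samples with nitrogen r was 0.94 for hht1 and hhf1 and -0.35 for hht2 and hhf2, so the likeness of the latter rests on the starved samples. The paired probe sets of 1 gene gave 0.99 for hht1, 0.99 for hhf1 and 0.94 for hhf3. With pht1 the canonical probe sets correlated at 0.10 for hhf3 up to 0.87 for hta1. All points of a correlation share arrays and starting RNA.

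Outside the members, the profiles most like the canonical mean among 2904 single-gene probe sets were those of oac1, a mitochondrial carrier (r = 0.94), the cohesin release factor wpl1 (0.93), the ubiquitin ligase adaptor cdt2 (0.93), the RNA-binding protein srp2 (0.92) and ams2 (0.91), over 12 samples. Among those most like pht1 were gap1, which acts on Ras (0.95), spt2 (0.95), his7 of histidine synthesis (0.94) and meu6 (0.93). Within the 8 samples with nitrogen the first 5 kept r between 0.92 and 0.97, and these 4 ranged from 0.45 for meu6 to 0.88 for gap1.

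Genes that switch histone genes on or off were measured alongside. In a bulk RNA sample, fewer cells in S phase and less histone RNA per cell cannot be told apart, which holds for every comparison above. Of 12 regulators, 5 fell and 3 rose in fcp1-452 at 37 against 26 °C, and in wild type none was called. Over all probe sets 22.1% fell and 17.8% rose in that comparison of the mutant. The activator gene ams2 was at 0.82 and -0.02 in the mutant at 26 °C and at -1.95 and -1.64 at 37 °C, below every other sample with nitrogen. Its change was -2.20 ± 0.30 (adjusted p = 0.00442) in the mutant and its interaction -2.05 ± 0.42 (adjusted p = 0.0400). Also lower were yox1 (-1.93 ± 0.27) and nrm1 (-1.06 ± 0.11), repressors of the MBF complex that drives the G1/S genes. The largest rise of the list was res2, of an MBF subunit (0.66 ± 0.16). The MBF subunit genes cdc10 (-0.65 ± 0.17) and res1 (-0.52 ± 0.12) were called lower. Of the 4 genes of the HIRA complex, which holds histone genes down outside S phase, slm9 (0.44 ± 0.10) and hip3 (0.40 ± 0.13) rose, and hip1 (0.24 ± 0.12) and hip4 (0.28 ± 0.12) were not called. In wild type slm9 stood at 0.33 and hip4 at 0.44, not called, and none of the 4 had a called interaction. Of 18 S-phase genes 13 fell and 2 rose in the same comparison, with a median of -1.08.

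On starvation, as the mean of the 4 conditions, 7 of the 12 regulators rose and 3 fell, where 33.9% of all probe sets rose and 38.2% fell. The falls were nrm1 (-1.31 ± 0.07), yox1 (-1.16 ± 0.19) and res1 (-0.97 ± 0.09). The HIRA genes hip3 (1.20 ± 0.09), hip1 (0.96 ± 0.08) and hip4 (0.84 ± 0.08) rose, as did slm9 (0.20 ± 0.07), while ams2 was not called (0.31 ± 0.21, adjusted p = 0.233). The single values of ams2 without nitrogen were 0.03 and 0.01 in wild type at 26 and 37 °C, -0.17 in fcp1-452 at 26 °C and 1.16 in fcp1-452 at 37 °C. The last was the highest ams2 value of the 12 samples and comes from a single array. A link between ams2 and the histone values of that sample was not tested.

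Histone chaperones and the machinery of variant nucleosomes completed the account. The shares of all probe sets to set beside their counts are again 22.1% lower and 17.8% higher in the mutant at 37 °C, and 38.2% lower and 33.9% higher on starvation. The gene asf1, listed as cia1, whose product carries H3 and H4, fell in the mutant at 37 °C (-1.97 ± 0.47, adjusted p = 0.0217), but its replicate 1 went from 0.97 to -0.10 and its replicate 2 from 0.02 to -2.85. Of the 14 chaperone genes 3 fell and 2 rose there, near the shares of all probe sets, and on starvation 9 fell and 2 rose, asf1 among the falls (-1.91 ± 0.33). The gene of the centromeric H3 variant, cnp1, fell in the mutant at 37 °C (-1.35 ± 0.22, adjusted p = 0.00719) with an interaction of -1.47 ± 0.31 (adjusted p = 0.0407). Its replicates also lay apart, with replicate 1 going from 0.39 to -0.54 and replicate 2 from -0.06 to -1.83. In its list 4 of 8 fell and 2 rose, the loading factor scm3 among those that rose (0.78 ± 0.11). Of 13 measured genes of the complex that deposits H2A.Z, 2 rose and 2 fell in the mutant at 37 °C. The ATPase gene swr1 (0.52 ± 0.13) and swc3 (1.08 ± 0.14) were the rises, and swc4 (-0.54 ± 0.12) was among the falls. On starvation 4 of the 13 rose and 7 fell, with msc1 (1.67 ± 0.09) and swr1 (1.12 ± 0.09) leading the rises and rvb2 (-0.80 ± 0.07) among the falls. In the starved mutant at 37 °C, a single array, swr1 was at 2.46 and pht1 at 2.24. A link between these values was not tested. Of 24 histone-modifying enzyme genes 4 rose and 3 fell in the mutant at 37 °C, and 6 rose and 11 fell on starvation.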

How the data were processed

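The authors deposited linear ratios for 4999 probe sets on 16 arrays. Per the submitters' processing notes the signals were summarised by RMA (robust multi-array averaging; no version given), and the values show that each deposited ratio is relative to the probe set's median over the 8 arrays of its set. Expression levels and signal over background are therefore not known, and the number of arrays limits the precision. Groups came from sample titles, since the longer description repeats a single condition on every array.

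Log2 ratios were taken. The 4 duplicate pairs gave each probe set an offset, which put set 1 on the scale of set 2, and the pairs were then averaged. The fit of the 12 samples used limma 3.58.1 (R 4.3.3), with group means and the replicate number as a block (3 residual degrees of freedom). Sets were scaled separately and -N arrays lie in set 1 only, which is why the block is in the design. The difference between replicates 1 and 2 correlated over every pair of the 4 groups (r = 0.640 to 0.870 across probe sets). Comparisons with pht1 or hht2 used the same fit on each probe set's value minus that gene's. The code was tested on simulated data.

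Symbols came from the platform annotation updated through RefSeq, for names and neighbours only. The genes named are all members, any gene of a context list with up to 8 measured genes, the 3 calls with the lowest p of longer lists, and the 5 profiles most like the canonical mean and pht1, of which 1 is not reported here. The values of res2, cdc10, res1 and the HIRA genes at 37 °C were added after values were seen. So were those of hip4, slm9, yox1, res1, ams2 and asf1 on starvation, and the comparison with hht2. Members and lists were chosen with earlier results of these data known. Alternatives were no block, all 16 arrays with a set term, quantile normalization, median centring, a pseudocount of 0.1, a minimum ratio of 0.1, set 2 alone, a 2-fold minimum and each sample left out. Promoter and protein sequences were not used here.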

Additional observations from a re-analysis of the deposited data

Results flagged for a closer look

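The mutant's response to 37 °C with nitrogen differed from that of wild type by the interaction test for hta1 (-0.70) and both hht1 probe sets (-1.36 and -1.45). The response to starvation, averaged over temperature, differed between the strains for hta1 (0.99), hta2 (0.66), both hht1 probe sets (0.84 and 0.73) and pht1 (1.25). For the last 5 the difference came from 37 °C: at 26 °C none of the 13 histone probe sets had an unadjusted p under 0.05 by limma for it. Between the strains at 37 °C, the single starved arrays differed by 0.06 and 0.05 for hht1, 1.13 for hta1, 0.77 for hta2 and 2.04 for pht1. With nitrogen the strain differences at 37 °C were -1.44 and -1.35 for hht1, -0.70 for hta1, -0.61 for hta2 and -0.38 for pht1. The starved fcp1-452 sample at 37 °C is a single array. The part of that array, and of the mutant samples with nitrogen at 37 °C, in these values was not tested.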

How the results depend on the processing

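The 10 calls in fcp1-452 at 37 °C, all falls, were 8 to 12 when samples were left out (12 being 11 falls and 1 rise) and were within 1.5 times under each other setting, and 0 were called between strains at 26 °C under any. With samples left out the other counts ran from 0 to 5 for wild type at 37 °C, 1 to 11 for the strains at 37 °C, 0 to 10 for the strain and temperature interaction, 4 to 10 for starvation (3 rises and 6 falls without the starved mutant sample at 37 °C) and 0 to 9 for the strain and nitrogen interaction. For differences from pht1 they ran from 0 to 11 in fcp1-452 at 37 °C and 0 to 9 on starvation. Without the replicate block the counts were 4 for the strains at 37 °C, 0 for both interactions, and 0 and 1 for the differences from pht1 in fcp1-452 at 37 °C and on starvation. The 16 arrays with a set term, which count duplicates as replicates, gave 3 for wild type at 37 °C, 6 for the strain and temperature interaction and 7 for differences from pht1 in the mutant. Quantile normalization gave 6 for wild type, 2 lower and 0 higher for the strains at 37 °C, 0 for both interactions, 1 for starvation, and 2 and 0 for the differences from pht1. A pseudocount of 0.1 gave 1 for the difference from pht1 on starvation. Asking for 2-fold as well left 5 for the strains at 37 °C, 1 for starvation, 1 for the strain and nitrogen interaction, and 2 and 0 for the differences from pht1. The shares of all probe sets called under these settings are not given here or above. The counts thus cannot tell a shift of the histones from a shift of all calls.

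Alternatives chosen after seeing the data took the temperatures apart. At 26 °C alone 6 canonical probe sets differed from pht1 on starvation and the strain and nitrogen interaction had 0 calls. At 37 °C alone starvation had 13 (12 without the replicate block), the difference from pht1 had 1 and the interaction 9. With hht2 in place of pht1, 11 of 11 differed in the mutant at 37 °C and 7 on starvation, or 9 and 6 without the replicate block. All of these were more negative than hht2. With the block, 35% of 4998 probe sets were so in the mutant at 37 °C and 72.6% on starvation. The starvation count is thus not above the share of all probe sets. In the mutant at 37 °C hht2 had the highest change of the members, so the sign of its differences was fixed by the choice. The signs of some estimates turned with temperature. At 26 °C alone the starvation change was -0.53 for hta1, -0.17 for hta2, -0.11 and -0.0862 for the hhf3 probe sets and -1.04 for pht1. The interaction there was -0.061 for hta2 and -0.044 for hht1. Of these values only the starvation changes of hta1 and pht1 were called by limma, and the others were not told from 0. At 37 °C alone the starvation change was 0.76 and 0.84 for hht1 and 1.27 and 1.16 for hhf1, all called. With samples left out the starvation change ran from -0.60 to 0.24 for the second hht1 probe set, -0.38 to 0.40 for hta1 and -0.61 to 0.63 for pht1; the highest values came without the starved wild-type sample at 26 °C and the lowest without the starved mutant sample at 37 °C. The cause of these shifts was not tested. Signal over background is not known from ratios.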

Other observations

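The replicates differed most for htb1 and hhf3 among the members. The mean of replicate 1 minus replicate 2 over the 4 groups with nitrogen was 0.83 for htb1 and -0.69 for hhf3. The second hhf3 probe set stood at -0.28 and hta1 at 0.032. All starved samples belong to replicate 1. The members' whole range over the 12 samples ran from 1.49 log2 units for hht2, a range at least as wide as that of 38.6% of all probe sets, to 3.19 for htb1, at least as wide as that of 88.9%.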
